A study of Mus musculus with 8 samples.

Results

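The genes of the mitochondrial respiratory chain and of ATP synthase were followed across 8 mouse thymic lymphomas. Members were the rows of the deposited expression table whose gene symbol matched the naming of the subunits of complex I (Nduf followed by a, b, c, s or v and a digit), complex II (Sdha to Sdhd), complex III (Uqcr genes and Cyc1), complex IV (Cox4 to Cox8) or complex V, the ATP synthase (Atp5). This gave 84 genes of 13681 symbols, with 37 genes in complex I, 4 in complex II, 9 in complex III, 16 in complex IV and 15 in complex V. The remaining 3 carry such a name but encode no subunit: Cox4nb, a gene of the endoplasmic reticulum membrane protein complex, and Atp5s and Atp5sl, named after complex V. Members were picked by symbol alone, though the rule was set with earlier results of these data known. Where a symbol had several transcript entries, the one with the highest mean was kept. Genes were placed in a complex by symbol, so that Ndufa4, whose protein is now counted with complex IV, its relative Ndufa4l2, and Cox7a2l, a factor of respiratory supercomplexes, stand under the complex of their name.

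All tumours came from p53-null C57BL/6 mice, and at an age of 10 weeks each lymphoma was injected with adenovirus. Tissue was taken 48 hours after that. The 2 control tumours had the genotype ΔNfl/fl;p53-/- and received Ad-mCherry, a virus with the red fluorescent marker alone. The 3 tumours labelled ΔNp63Δ/Δ;p53-/- and the 3 labelled ΔNp73Δ/Δ;p53-/- received Ad-CRE-mCherry, which also carries the Cre recombinase that removes loxP-flanked DNA. ΔNp63 and ΔNp73 are the forms of the p53 relatives p63 and p73 that lack the N-terminal transactivation domain. Virus content and genotype label changed together, so the effect of Cre and that of a deletion cannot be told apart in the comparisons with control. Which cells of the tumour took up the virus is not given, and nothing in the labels shows that the libraries of a group came from separate animals, and p-values here cover the spread between the samples alone, which may be technical.

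Complexes I, III and IV of the inner mitochondrial membrane pass electrons from nutrients to oxygen and pump protons. Complex II, which is also an enzyme of the TCA cycle, feeds electrons in without pumping, and complex V uses the proton gradient to make ATP. A few core subunits are encoded in mitochondrial DNA and all others in the nucleus, and several complex IV subunits have alternative forms used mainly in heart and skeletal muscle, brown fat, lung or testis. The mitochondrially encoded subunits were not analysed here.

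Expression was given as quantile-normalised FPKM, fragments per kilobase of transcript scaled to library size, which allows levels of different genes to be set side by side. Depth is unknown, since no counts were used. The library ΔNp63-labelled replicate 2 stood apart from the rest, with a median correlation of 0.847 with the other libraries over all genes against 0.915 to 0.956 for the others. It was closer to the control libraries, at 0.915 and 0.900, than to replicates 1 and 3 of its own group, at 0.847 each. Trp63 was at 5.21 and 3.38 FPKM in the control libraries, 6.57, 1.05 and 9.91 in the ΔNp63-labelled libraries and 13.8, 11.3 and 6.38 in the ΔNp73-labelled libraries, which is a whole-gene value and does not check the loss of the ΔN form, and Trp73 was not analysed here. Trp53 was likewise read in these p53-null tumours, at up to 81.0 FPKM, which says nothing of an intact transcript. Markers of thymocytes and T cells (12 of 12 listed genes in the table) summed to 4938 to 5742 FPKM in control, 2140 to 4206 in ΔNp63-labelled and 2190 to 3556 in ΔNp73-labelled tumours. Macrophage and monocyte markers (11 of 12) summed to 396 to 453, 446 to 1137 and 1039 to 1353 FPKM, and proliferation genes (15 of 15) to 1355 to 1394, 372 to 1179 and 377 to 611. Adipocyte markers (9 of 10) summed to 148 to 1005, 94.4 to 2060 and 179 to 2490 FPKM. Fibroblast markers (8 of 8, of which Thy1 is also in the T cell list) had a positive log2 fold change in 7 of 8 genes in each comparison with control, and Col1a2 passed the test in ΔNp73-labelled tumours, with 2.18 (SE 0.23, adjusted p = 0.0475). T cell and proliferation sums were thus lower than control in both other groups, and macrophage sums were higher than control in ΔNp73-labelled tumours. For proliferation this did not hold gene by gene in ΔNp63-labelled replicate 2. There the median of the listed genes was 0.10 above the control mean in log2(FPKM + 1), against -1.77 in replicates 1 and 3. Adipocyte sums overlapped between all groups. Between the ΔNp63-labelled and ΔNp73-labelled groups all of these sums overlapped, though 11 of 11 macrophage markers had the higher mean log2 level in ΔNp73-labelled tumours. The part of these marker levels in the results was not tested. Fewer cells of a type cannot be told apart from less RNA per cell.

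Respiratory chain and ATP synthase genes were among the most abundant in the tumours. The median of their mean levels was 86.8 FPKM, against 6.95 FPKM over all symbols, and 38 of the 84 were at 100 FPKM or more. Complex V genes had the highest median, 231 FPKM, followed by complex IV with 145, complex III with 136, complex II with 63.7 and complex I with 63.3 FPKM. Their order is a description, since single genes within a complex ranged widely, from 5.25 to 459.5 FPKM in complex I and from under 2 to 512 FPKM in complex IV. All 84 passed the filter on low values (at least 1 FPKM in at least 2 libraries). Over the 8 libraries the highest value of a member was a median of 1.82 times its lowest, against 1.90 for the 5355 tested genes with a mean over 10 FPKM. The ratio was at most 2 for 55 members and over 10 for 3, all of them complex IV isoforms described below.

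The most abundant member of complex I by symbol was Ndufa3, a supernumerary subunit, at 439.9 and 402 FPKM in the control libraries, 756, 389 and 382 in the ΔNp63-labelled libraries and 438, 382 and 487 in the ΔNp73-labelled libraries. Its highest library was ΔNp63-labelled replicate 1, and the groups overlapped. Ndufa4, whose product binds to complex IV, was at 335 and 412 FPKM in control, 330.5, 364 and 299.5 in ΔNp63-labelled and 379, 259 and 285 in ΔNp73-labelled tumours. ΔNp63-labelled replicate 2 and ΔNp73-labelled replicate 1 lay within the control range and the other 4 libraries below it. Ndufs1, the large iron-sulphur protein of the electron path, was far less abundant, at 6.94 and 8.91 FPKM in control, 6.81, 10.1 and 5.72 in ΔNp63-labelled and 7.03, 5.15 and 5.28 in ΔNp73-labelled tumours, and its groups overlapped. Ndufs1 had 4 transcript entries, of which the most abundant, with a mean of 6.99 FPKM, was used. The others had means of 5.11, 3.18 and 2.77 FPKM, so the value given understates the level of the whole gene. In complex II, Sdha, the flavoprotein that oxidises succinate, was at 53.4 and 68.6 FPKM in control, 51.6, 42.4 and 56.8 in ΔNp63-labelled and 69.3, 46.2 and 50.7 in ΔNp73-labelled tumours. Its iron-sulphur partner Sdhb was at 60.4 and 78.0 FPKM in control, 67.0, 148 and 62.7 in ΔNp63-labelled and 66.0, 49.8 and 50.1 in ΔNp73-labelled tumours. ΔNp63-labelled replicate 2 was thus the lowest library for Sdha and the highest for Sdhb. The membrane anchor Sdhc was at 68.9 and 81.8 FPKM in control, 74.8, 87.7 and 71.6 in ΔNp63-labelled and 74.2, 65.2 and 56.8 in ΔNp73-labelled tumours. The other anchor, Sdhd, was at 43.1 and 53.2 FPKM in control, 47.9, 56.1 and 48.1 in ΔNp63-labelled and 53.1, 40.9 and 39.8 in ΔNp73-labelled tumours. Sdhb alone among the 4 had a library far above the rest, ΔNp63-labelled replicate 2, and in both comparisons with control no Sdh gene had groups that did not overlap.

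In complex III the hinge protein gene Uqcrh was the most abundant, at 447 and 539 FPKM in the control libraries, 480.2, 516 and 498 in the ΔNp63-labelled libraries and 498, 498 and 480.2 in the ΔNp73-labelled libraries. It was the steadiest member, with a highest value only 1.21 times its lowest. Uqcrb, which binds ubiquinone, was at 211 and 260.1 FPKM in control, 293, 209 and 219 in ΔNp63-labelled and 269, 188 and 198 in ΔNp73-labelled tumours, and its groups overlapped. Uqcrfs1, the Rieske iron-sulphur protein that passes electrons to cytochrome c1, was at 31.9 and 44.3 FPKM in control, 33.9, 41.6 and 35.2 in ΔNp63-labelled and 32.2, 22.9 and 21.9 in ΔNp73-labelled tumours. Its ΔNp73-labelled replicates 2 and 3 were the lowest libraries, and replicate 1 was within the control range. The most abundant complex IV genes were Cox6b1, which joins the dimer on the outer side, at 434 and 603 FPKM in control, 569, 409 and 548 in ΔNp63-labelled and 531, 513 and 491 in ΔNp73-labelled tumours, and Cox6a1. The groups overlapped for Cox6b1. Cox6a1 was at 394 and 468 FPKM in control, 434, 609.5 and 398 in ΔNp63-labelled and 398, 285 and 309 in ΔNp73-labelled tumours. It was highest in ΔNp63-labelled replicate 2 and lowest in ΔNp73-labelled replicates 2 and 3. Complex V was led by Atp5k and Atp5l, subunits e and g of the membrane part. Atp5k was at 561 and 439.9 FPKM in control, 402, 844 and 373 in ΔNp63-labelled and 450.4, 318 and 399.8 in ΔNp73-labelled tumours, with the highest value in ΔNp63-labelled replicate 2. Atp5l was at 450.4 and 462 FPKM in control, 430.1, 468 and 430.1 in ΔNp63-labelled and 548, 438 and 536 in ΔNp73-labelled tumours, with groups that overlapped. The catalytic subunit gene Atp5b was at 398 and 447 FPKM in the control libraries, 282, 355 and 349 in the ΔNp63-labelled libraries and 353, 316 and 319.9 in the ΔNp73-labelled libraries. Here every ΔNp63-labelled and ΔNp73-labelled library lay below both controls.

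Taken library by library, the members differed little and not by group alone. Relative to the control mean on the log2(FPKM + 1) scale, their median was -0.08 and 0.08 in the 2 control libraries, 0.04, 0.32 and -0.11 in the ΔNp63-labelled and 0.02, -0.31 and -0.27 in the ΔNp73-labelled libraries. ΔNp63-labelled replicate 2 held the highest value of 49 of the 84 members, and ΔNp73-labelled replicates 2 and 3 held the lowest of 40 and 18. In ΔNp73-labelled replicates 2 and 3, 77 and 74 members lay below the control mean, against 40 in replicate 1. Control replicate 1 itself had 69 below it, so the members moved together between the 2 controls as well. ΔNp73-labelled replicate 1 is also the library with the highest summed adipocyte and striated muscle markers, at 2490 and 120.7 FPKM, and their part in its level was not tested. The adipocyte sum was 184 and 179 FPKM in ΔNp73-labelled replicates 2 and 3.

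**Figure D1:**
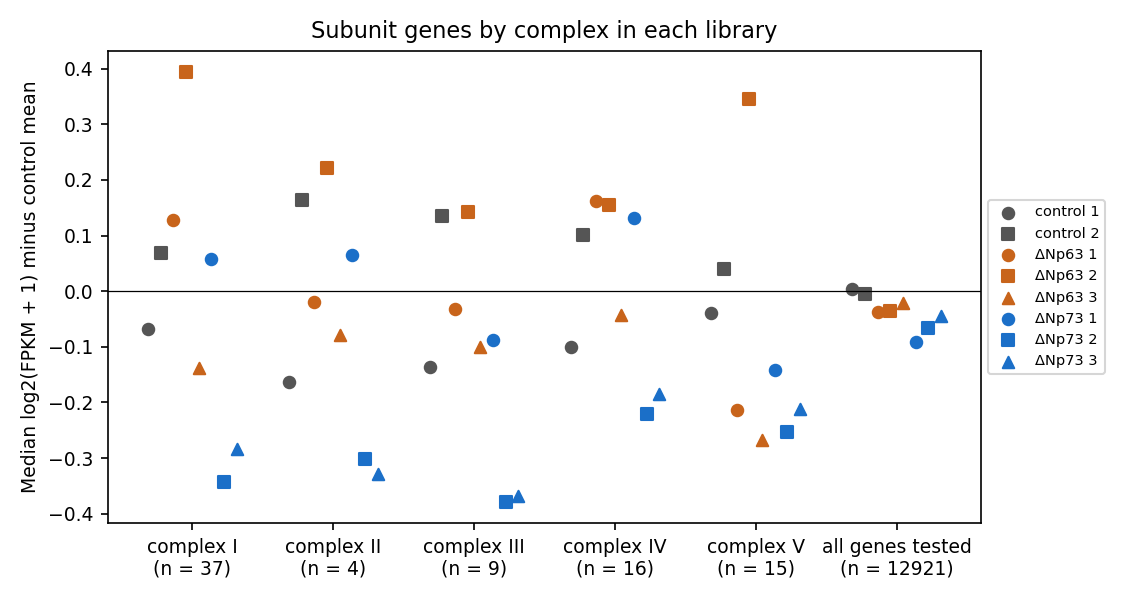
Median of log2(FPKM + 1) minus the control mean (vertical axis, log2 units) over the subunit genes of each complex and over all 12921 genes tested; each point is 1 library, with colour for the group and shape for the replicate. ΔNp73-labelled replicates 2 and 3 lie between -0.19 and -0.38 in each complex, ΔNp63-labelled replicate 2 is highest in complexes I, II, III and V, and all libraries lie near 0 over all genes.

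In ΔNp73-labelled against control tumours, most respiratory chain genes were lower by a small amount that no single gene carried past the test. The median log2 fold change of the 84 members was -0.22, and 69 lay below 0, against a median of -0.07 and 56.7% below 0 over all 12921 genes tested. By count alone, 69 members also lay below the control mean in control replicate 1, where their median was -0.08. By complex the median was -0.22 in I (32 of 37 genes below 0), -0.18 in II (4 of 4), -0.28 in III (8 of 9), -0.12 in IV (12 of 16) and -0.21 in V (11 of 15). In the limma model across all genes 0 of 84 members passed an adjusted p of 0.05, where 0.0542% of all genes did. At an unadjusted p under 0.05, 3 members were lower and 2 higher, against 9.83% and 11.4% of all genes. The groups did not overlap for 27 members that were lower and 4 that were higher, against 35.7% and 27.7% of all genes, so separation of the groups was no more frequent in the members than in the table as a whole. Without ΔNp73-labelled replicate 1 the members' median was -0.30. The call depended on how the spread was estimated. With libraries weighted by their quality (array weights in limma), 37 members passed, 35 of them lower, where 27.3% of all genes passed as lower and 23.5% as higher. With control and ΔNp73-labelled libraries alone, 9 members passed, 6 of them lower, where 14.9% of all genes passed as lower and 15.9% as higher. Without ΔNp63-labelled replicate 2, 6 passed, 4 of them lower, against 16.1% lower and 16.8% higher.

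Apart from the isoforms Cox8b, Cox7a1 and Cox6b2 described below, Uqcrfs1 had the most negative value in this comparison, -0.55 (SE 0.22, adjusted p = 0.217). Ndufa12, an accessory subunit at the arm junction of complex I, had a value of -0.53 (SE 0.23, adjusted p = 0.247), with 178 and 170.1 FPKM in control, 207, 229 and 136 in ΔNp63-labelled and 131, 122 and 109 in ΔNp73-labelled tumours. All 3 ΔNp73-labelled libraries lay below every library of the other groups. It was singled out after its values were seen, as were Atp5h and Ndufb11. Atp5h, subunit d of the ATP synthase stalk, was at 377 and 394 FPKM in control, 322, 454 and 244 in ΔNp63-labelled and 254, 245 and 294 in ΔNp73-labelled tumours, a difference of -0.55 (SE 0.26, adjusted p = 0.266). Ndufb11, a membrane arm subunit, was at 85.1 and 93.6 FPKM in control, 92.8, 81.0 and 83.5 in ΔNp63-labelled and 75.5, 67.4 and 61.3 in ΔNp73-labelled tumours, a difference of -0.39 (SE 0.15, adjusted p = 0.2). Both lay below both controls in all 3 ΔNp73-labelled libraries. Against this direction, Atp5e, the epsilon subunit of the ATP synthase rotor, was at 158 and 167 FPKM in control, 234, 337 and 171 in ΔNp63-labelled and 242, 198 and 280.4 in ΔNp73-labelled tumours, higher than both controls in each of the 6 other libraries, with 0.55 (SE 0.29, adjusted p = 0.465) in ΔNp63-labelled and 0.55 (SE 0.29, adjusted p = 0.315) in ΔNp73-labelled tumours.

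In ΔNp63-labelled against control tumours, the members as a group did not shift in a way that held without replicate 2. Their median log2 fold change was 0.08, with 56 of 84 above 0, against -0.02 and 52.3% below 0 over all genes, and without replicate 2 it was -0.03, with 47 of 84 below 0. By complex the median was 0.15 in I, where 31 of 37 genes lay above 0, 0.06 in II, 0.02 in III, -0.02 in IV and -0.04 in V. With limma 0 of 84 passed the adjusted threshold, against 0.0929% of all genes. At an unadjusted p under 0.05, 3 members were higher and 1 lower, against 5.96% and 7.03% of all genes. The groups did not overlap for 9 members that were higher and 3 that were lower, against 12.6% and 17.7%. With array weights 9 members passed, 3 higher and 6 lower, against 16.3% and 18.4% of all genes, and without replicate 2 there were 3, of which 1 was higher and 2 were lower, against 11.7% and 10.8%. The members whose ΔNp63-labelled libraries were all above control included Ndufs5, a small subunit of the intermembrane side of complex I, at 38.2 and 38.3 FPKM in control, 48.6, 82.3 and 45.2 in ΔNp63-labelled and 41.2, 37.1 and 46.0 in ΔNp73-labelled tumours, with 0.55 (SE 0.26, adjusted p = 0.419). Atp5b had the most negative value outside the low-abundance and tissue isoforms, -0.37 (SE 0.16, adjusted p = 0.405), and its value in ΔNp73-labelled tumours was -0.36 (SE 0.16, adjusted p = 0.261). Both comparisons with control use the same 2 control libraries, so their values are not independent of each other.

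Between ΔNp73-labelled and ΔNp63-labelled tumours, which both received the Cre virus, 72 of 84 members had the lower mean in the ΔNp73-labelled group. The median was -0.26, against -0.02 and 51.9% below 0 over all genes, and by complex it was -0.29 in I (35 of 37 below 0), -0.22 in II (3 of 4), -0.42 in III (9 of 9), -0.11 in IV (11 of 16) and -0.15 in V (12 of 15). With limma 0 of 84 passed, against 0.0542% of all genes, and 8 members were lower and 0 higher at an unadjusted p under 0.05, against 4.4% and 6.11%. The groups did not overlap for 11 lower and 0 higher members, against 8.58% and 10.3%. With array weights 1 member passed, as lower, against 1.25% lower and 1.42% higher of all genes. Without ΔNp63-labelled replicate 2 the median was -0.14, with 61 members below 0. Beside the tissue isoforms, the most negative values belonged to Atp5g1, with -0.73 (SE 0.30, adjusted p = 0.472), and to Ndufb8, a membrane arm subunit of complex I at 104 and 111 FPKM in control, 109, 226 and 81.8 in ΔNp63-labelled and 99.1, 67.2 and 73.0 in ΔNp73-labelled tumours, with -0.68 (SE 0.36, adjusted p = 0.498). For Ndufb8, ΔNp63-labelled replicate 2 was far above the rest, and the other libraries of that group were within the control range or below it. The most positive values were 0.47 (SE 0.38, adjusted p = 0.574) for Cox6b2, 0.28 (SE 0.19, adjusted p = 0.542) for Ndufa4l2, 0.25 (SE 0.30, adjusted p = 0.674) for Atp5g3 and 0.19 (SE 0.14, adjusted p = 0.56) for Atp5l.

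**Figure D2:**
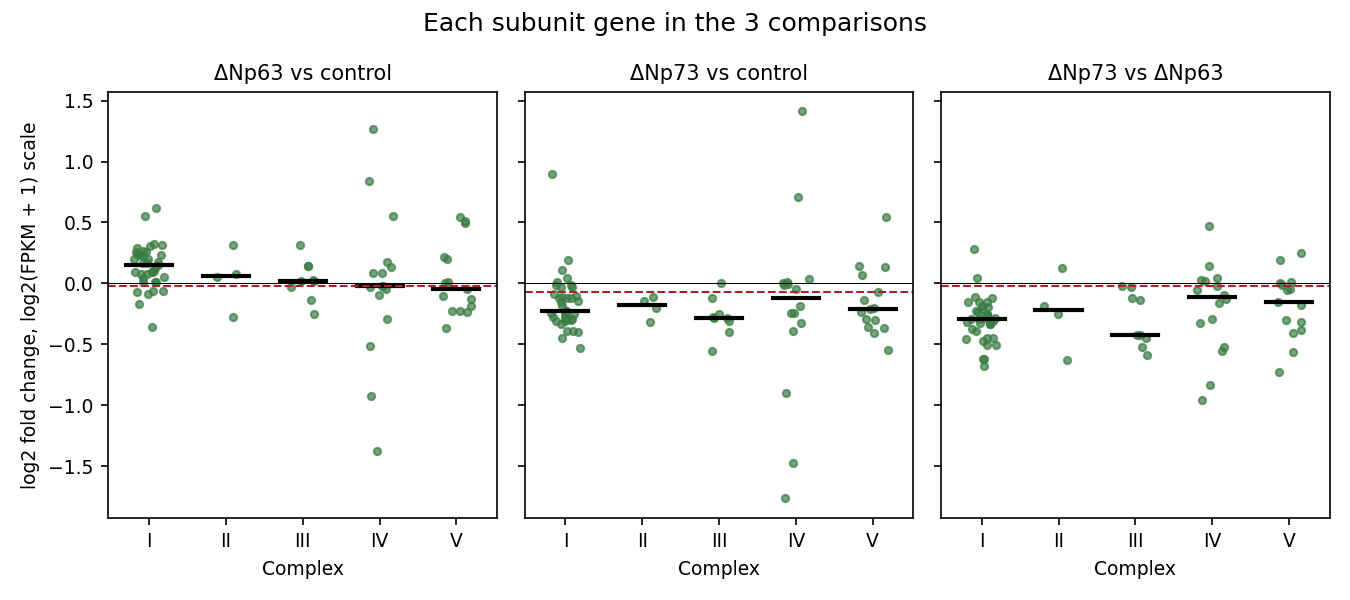
Log2 fold change on the log2(FPKM + 1) scale (vertical axis) of each of the 81 subunit genes in the 3 comparisons, by complex; a point is 1 gene, the black bar the median of the complex and the dashed red line the median of all genes tested. The ΔNp73-labelled medians lie below 0 in every complex, and the widest points are complex IV isoforms.

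The widest range of any member belonged to Cox8b, the form of subunit VIII used in heart, skeletal muscle and brown fat, with a highest value 68.7 times its lowest. Cox8b was at 16.5 and 218 FPKM in the control libraries, 99.1, 3.59 and 73.8 in the ΔNp63-labelled libraries and 169.8, 7.44 and 3.17 in the ΔNp73-labelled libraries. High and low libraries occurred within each group, and the groups overlapped. The difference from control was -0.93 (SE 1.99, adjusted p = 0.884) in ΔNp63-labelled and -1.77 (SE 1.99, adjusted p = 0.629) in ΔNp73-labelled tumours. Its share of the summed Cox8a and Cox8b FPKM was 5.06% and 39.0% in control, 18.1%, 0.576% and 15.9% in ΔNp63-labelled and 31.2%, 2.48% and 1.02% in ΔNp73-labelled tumours. Cox7a1, the heart, muscle and brown fat form of subunit VIIa, was at 10.3 and 51.7 FPKM in control, 36.8, 8.97 and 12.1 in ΔNp63-labelled and 67.7, 1.94 and 2.33 in ΔNp73-labelled tumours, with -0.52 (SE 1.42, adjusted p = 0.913) and -1.48 (SE 1.42, adjusted p = 0.569). It was low and high in nearly the same libraries as Cox8b.

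Markers of brown fat followed the same libraries. Ucp1, the uncoupling protein that defines brown fat, was at 6.18 and 100.2 FPKM in the control libraries, 26.0, 1.62 and 32.9 in the ΔNp63-labelled libraries and 72.4, 0.117 and 0.079 in the ΔNp73-labelled libraries. Cidea, a lipid droplet protein of brown adipocytes, was at 4.11 and 31.5 FPKM in control, 30.7, 1.27 and 20.3 in ΔNp63-labelled and 48.6, 0.226 and 0.213 in ΔNp73-labelled tumours. The part of such tissue in the levels of Cox8b and Cox7a1 was not tested.

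Cox6a2, the heart and skeletal muscle form of subunit VIa, was at 1.79 and 2.66 FPKM in the control libraries, 9.07, 6.34 and 5.14 in the ΔNp63-labelled libraries and 39.5, 4.07 and 1.99 in the ΔNp73-labelled libraries. A single library, ΔNp73-labelled replicate 1, stood far above the rest, while all ΔNp63-labelled libraries also lay above both controls. The difference was 1.27 (SE 0.97, adjusted p = 0.61) in ΔNp63-labelled and 1.41 (SE 0.97, adjusted p = 0.425) in ΔNp73-labelled tumours. In the same ΔNp73-labelled library the heart muscle genes Myh6, Tnnt2 and Actc1 were at 14.6, 28.7 and 19.0 FPKM, and each was at most 0.996 FPKM in the others. Mb, the muscle oxygen store myoglobin, was at 43.2 FPKM there and at most 0.381 in the others, with a value of 0 in ΔNp73-labelled replicate 3. The striated muscle list (7 of 15 genes in the table) summed to 120.7 FPKM in that library and to between 2.15 and 3.96 in the other 7. Tnni2, also in the list, was not raised there, at 0.889 FPKM against 0.710 to 1.32 in the others. Without that library the Cox6a2 difference in ΔNp73-labelled tumours was 0.29, and the part of muscle in it was not tested.

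**Figure D3:**
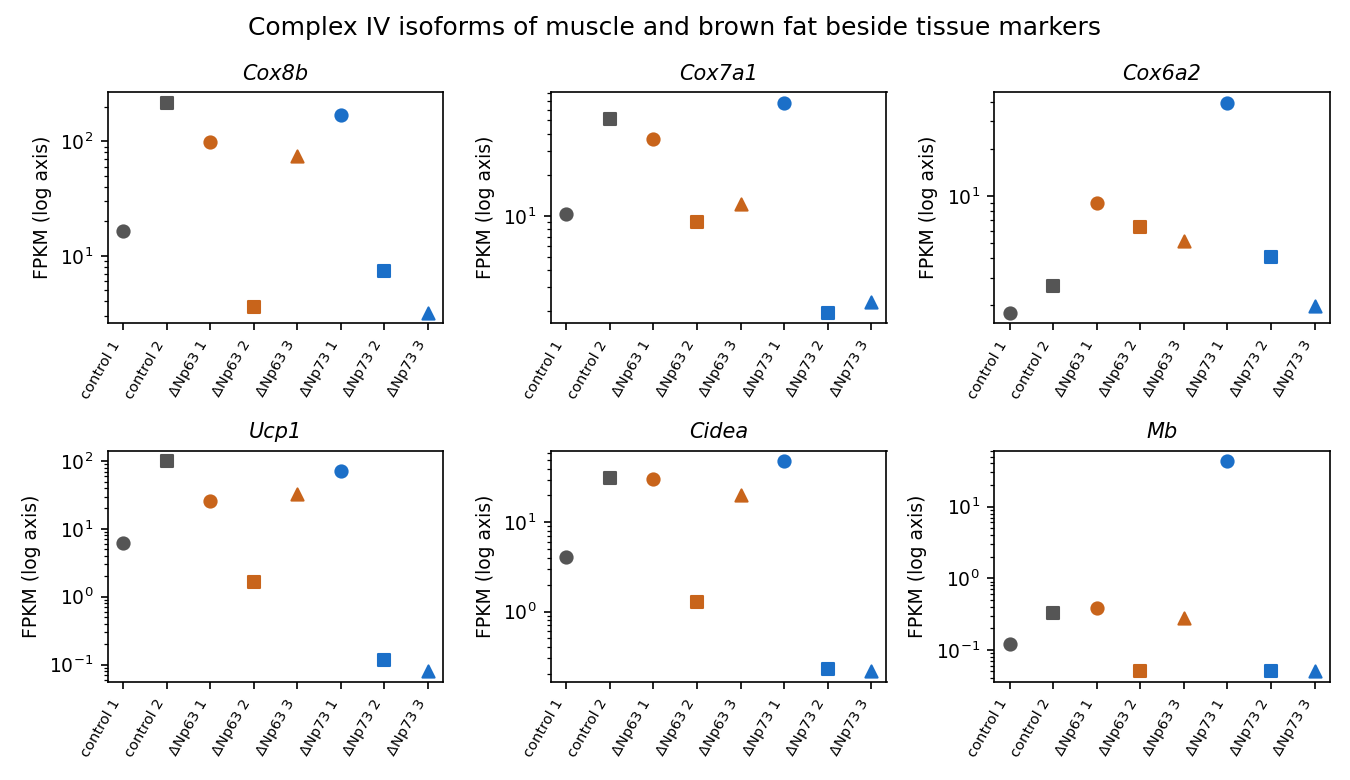
FPKM (vertical log axes) of the complex IV isoforms Cox8b, Cox7a1 and Cox6a2 (top) and of the brown fat markers Ucp1 and Cidea and the muscle marker Mb (bottom) in each of the 8 libraries; values under 0.05 are drawn at 0.05. Cox8b and Cox7a1 are low in ΔNp73-labelled replicates 2 and 3, where Ucp1 and Cidea lie between 0.079 and 0.226, and Cox6a2 and Mb are highest in ΔNp73-labelled replicate 1.

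The common partners of these isoforms varied far less. Cox8a, the general form of subunit VIII, was at 309 and 340.4 FPKM in the control libraries, 447, 620.5 and 389 in the ΔNp63-labelled libraries and 375, 293 and 308 in the ΔNp73-labelled libraries. All 3 ΔNp63-labelled libraries were above every library of the other groups, with 0.55 (SE 0.23, adjusted p = 0.373) against control and -0.56 (SE 0.20, adjusted p = 0.467) for ΔNp73-labelled against ΔNp63-labelled tumours. Cox7a2 was at 79.7 and 90.9 FPKM in control, 69.4, 138 and 60.1 in ΔNp63-labelled and 85.2, 61.6 and 59.2 in ΔNp73-labelled tumours, with groups that overlapped. Cox7a2l was at 176 and 164 FPKM in control, 143, 107 and 173 in ΔNp63-labelled and 137, 147 and 145 in ΔNp73-labelled tumours. Cox7b, a small membrane subunit, was at 52.4 and 56.2 FPKM in control, 72.7, 58.0 and 55.2 in ΔNp63-labelled and 70.4, 47.6 and 48.9 in ΔNp73-labelled tumours. Both had an adjusted p of 0.512 or more in each comparison with control. Cox7b2 and Cox8c were not analysed here.

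The bases before the start sites of the tissue forms Cox8b and Cox7a1 and their common partners are shown because these tissue forms had the widest ranges of all members. Cox6a1 is shown as the partner of Cox6a2, whose own bases are not shown, so that pair is not compared. The bases come from RefSeq windows on GRCm38.p6, not from the mm9 build of the expression table. They run 5′ to 3′ up to the start or to the first annotated exon. Capitals mark bases of matches to the ETS motif CCGGAAG, bound by GABPA, or to the NRF1 motif GCATGCGC with GC before it, on either strand; both factors are known activators of nuclear respiratory genes. Cox8b lies at chr7:140900447-140900696, minus strand, Cox8a at chr19:7217617-7217866, minus strand, Cox7a1 at chr7:30183921-30184143, plus strand, Cox7a2 at chr9:79759879-79760103, minus strand and Cox6a1 at chr5:115348982-115349129, minus strand.
Cox8b: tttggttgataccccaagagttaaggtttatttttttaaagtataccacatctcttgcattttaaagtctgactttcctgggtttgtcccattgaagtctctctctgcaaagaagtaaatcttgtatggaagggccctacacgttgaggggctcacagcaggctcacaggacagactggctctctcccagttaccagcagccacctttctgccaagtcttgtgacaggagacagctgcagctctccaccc
Cox8a: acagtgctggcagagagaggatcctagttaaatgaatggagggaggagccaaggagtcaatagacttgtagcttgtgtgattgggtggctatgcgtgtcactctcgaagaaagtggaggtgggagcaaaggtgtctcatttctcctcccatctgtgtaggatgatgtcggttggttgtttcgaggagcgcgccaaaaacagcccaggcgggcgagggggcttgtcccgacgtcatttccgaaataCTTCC
Cox7a1: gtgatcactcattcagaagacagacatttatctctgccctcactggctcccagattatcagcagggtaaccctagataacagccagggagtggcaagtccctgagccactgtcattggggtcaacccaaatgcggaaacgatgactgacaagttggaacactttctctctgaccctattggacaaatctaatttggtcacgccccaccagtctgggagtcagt
Cox7a2: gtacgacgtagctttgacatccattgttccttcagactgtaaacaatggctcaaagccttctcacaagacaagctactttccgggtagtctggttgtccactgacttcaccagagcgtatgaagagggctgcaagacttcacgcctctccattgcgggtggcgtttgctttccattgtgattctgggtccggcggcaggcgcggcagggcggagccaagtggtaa
Cox6a1: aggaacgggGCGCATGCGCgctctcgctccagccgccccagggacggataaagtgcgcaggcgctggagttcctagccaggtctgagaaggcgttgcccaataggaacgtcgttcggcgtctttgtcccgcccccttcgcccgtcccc
In the whole windows of 300 bases (250 before and 50 after the start), the tissue forms Cox8b and Cox7a1 held 2 and 7 CpG dinucleotides, and their partners Cox8a and Cox7a2 held 19 and 20. Cox6a1 held 32. Cox8b, Cox7a1 and Cox7a2 had no match to the motifs searched, Cox8a had 2 ETS matches, of which the first runs over the start and is printed in part, and Cox6a1 had the longer NRF1 motif and, beyond the printed bases, 1 ETS match.

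A promoter window was found for 68 of the 84 members. The NRF1 motif GCATGCGC with GC before it occurred in 5 of them (7.35%), against 1.07% of the 27025 genes with windows of the same length, and GCATGCGC alone, which the longer form contains, in 10 (14.7%, against 3.05%). The ETS motif occurred in 16 (23.5%, against 9.93%). The YY1 motif AAGATGG followed by CGGC occurred in 5 (7.35%, against 0.755%) and AAGATGG alone in 12 (17.6%, against 7.28%). Over protein-coding genes alone, the shares in the same order were 1.47%, 3.94%, 12.9%, 1.06% and 7.18%. At least 1 motif was present in 32 members (47.1%), against 18.6% of all genes and 21.8% of the 17492 protein-coding genes. A gene with several start sites counted once. The members' windows held a median of 57.8% GC and 19 CpG, against 56.3% and 13 for protein-coding genes, and this was not adjusted for. These matches are descriptions of letters, not of binding.

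The low-abundance isoforms Cox4i2, Ndufa4l2 and Cox6b2 had all Cre-treated libraries on one side of both controls. Such separation was frequent in the table: all libraries were higher than control for 12.6% of all genes in the ΔNp63-labelled and 27.7% in the ΔNp73-labelled group, and lower for 17.7% and 35.7%, in comparisons that share the controls. Cox4i2, the lung form of subunit IV that is known to respond to oxygen, was at 0.706 and 0.526 FPKM in the control libraries, 2.28, 1.37 and 2.08 in the ΔNp63-labelled libraries and 1.12, 1.71 and 2.19 in the ΔNp73-labelled libraries. Every Cre-treated library was above both controls, with 0.84 (SE 0.23, adjusted p = 0.248) in ΔNp63-labelled and 0.71 (SE 0.23, adjusted p = 0.156) in ΔNp73-labelled tumours. Ndufa4l2, a relative of Ndufa4 known as a target of hypoxia-inducible factor 1, was at 2.82 and 3.32 FPKM in the control libraries, 6.37, 5.65 and 3.97 in the ΔNp63-labelled libraries and 5.69, 6.36 and 7.85 in the ΔNp73-labelled libraries. Again every Cre-treated library was above both controls, with 0.62 (SE 0.21, adjusted p = 0.311) and 0.90 (SE 0.21, adjusted p = 0.1). Cox6b2, the testis form of subunit VIb, was at 7.63 and 9.43 FPKM in the control libraries, 3.23, 0.973 and 4.89 in the ΔNp63-labelled libraries and 4.99, 3.86 and 3.50 in the ΔNp73-labelled libraries. Here every Cre-treated library was below both controls, with -1.37 (SE 0.42, adjusted p = 0.278) and -0.90 (SE 0.42, adjusted p = 0.266). None of these passed the adjusted threshold in the model of all 8 libraries. In the ΔNp73-labelled comparison all 3 passed when ΔNp63-labelled replicate 2, which enters through the shared estimate of spread, was left out, with adjusted p of 0.0274, 0.0143 and 0.0128, as given with their background above. Over the libraries left out in turn, their adjusted p in that comparison reached 0.588, 0.556 and 0.638. Macrophage and fibroblast markers were higher in the same groups (11 of 11 and 7 of 8 listed genes above 0), and their part in these differences was not tested. The rise was uneven between libraries. In ΔNp63-labelled replicate 2 the list medians were 0.29 and 0.32 above the control mean in log2(FPKM + 1). In the other Cre-treated libraries they were 1.39 to 1.79 and 1.13 to 1.66.

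Each of the 3 was a small part of its pair. Cox4i1, the general form of subunit IV, was at 308 and 353 FPKM in control, 287, 358 and 285 in ΔNp63-labelled and 294, 268 and 306 in ΔNp73-labelled tumours, and Cox4i2 made up 0.149% to 0.787% of the summed FPKM of both. Ndufa4l2 made up 0.834% and 0.799% of the sum with Ndufa4 in control, 1.31% to 1.89% in ΔNp63-labelled and 1.48% to 2.68% in ΔNp73-labelled tumours. Cox6b2 made up 1.73% and 1.54% of the sum with Cox6b1 in control and 0.237% to 0.931% in the other libraries.

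**Figure D4:**
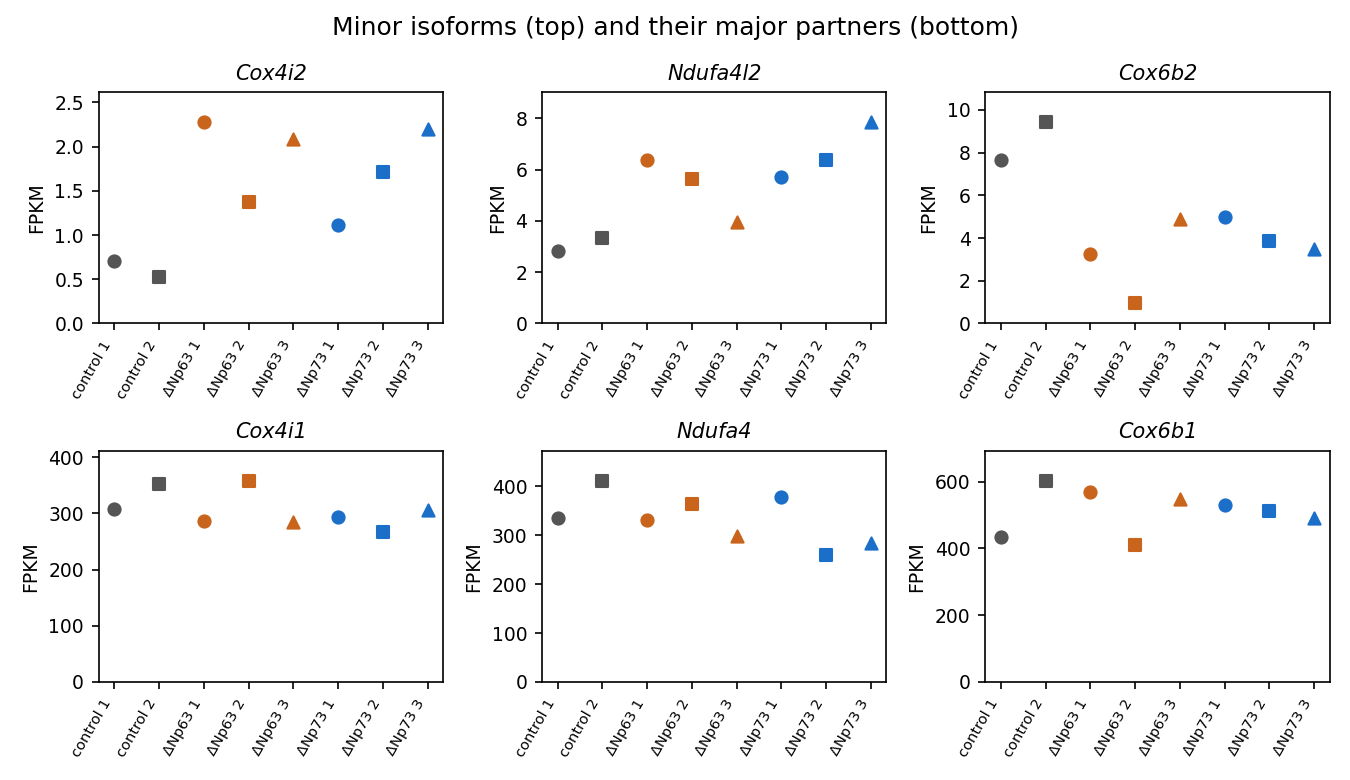
FPKM (linear vertical axes from 0) of Cox4i2, Ndufa4l2 and Cox6b2 (top) and of their more abundant relatives Cox4i1, Ndufa4 and Cox6b1 (bottom) in each of the 8 libraries. All 6 Cre-treated libraries lie above both controls for Cox4i2 and Ndufa4l2 and below both for Cox6b2. Ndufa4 and Cox6b1 overlap between the groups. Cox4i1 lies below both controls in every ΔNp73-labelled library and overlaps with control in the ΔNp63-labelled libraries.

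The c subunit that forms the ring of the ATP synthase rotor is encoded by Atp5g1, Atp5g2 and Atp5g3, which share the mature protein and differ in the leader peptide. How the authors' counting divided reads between such close copies is not given in the sources used here, so the division is uncertain. Atp5g1 was at 77.2 and 69.2 FPKM in control, 105, 164 and 66.1 in ΔNp63-labelled and 64.6, 61.2 and 62.9 in ΔNp73-labelled tumours. Atp5g2 was at 217 and 232 FPKM in control, 266, 474 and 251 in ΔNp63-labelled and 219, 214 and 209.8 in ΔNp73-labelled tumours. In both genes ΔNp63-labelled replicate 2 was highest. Atp5g3 was at 266 and 276 FPKM in control, 194, 412 and 199 in ΔNp63-labelled and 299.5, 260.4 and 340.4 in ΔNp73-labelled tumours. Their sum was 516 to 613 FPKM in 7 libraries and 1051 in ΔNp63-labelled replicate 2. Atp5g3 supplied 47.5% and 47.8% of the sum in control, 34.3%, 39.2% and 38.6% in ΔNp63-labelled and 51.4%, 48.6% and 55.5% in ΔNp73-labelled tumours. In this share the ΔNp63-labelled libraries lay below the others, and control and ΔNp73-labelled libraries were close, at up to 47.8% and from 48.6%. Atp5g1 had a second transcript entry outside the sum, at 13.1 and 13.3 FPKM in control. It was at 29.3, 31.2 and 17.1 FPKM in ΔNp63-labelled and 22.9, 25.7 and 21.2 in ΔNp73-labelled tumours. No separation of control from ΔNp73-labelled libraries is therefore claimed. The share was looked at after the values were seen and was not tested. Atp5g2 supplied a larger share in the ΔNp63-labelled libraries, 45.2% to 48.6%, against 34.2% to 40.2% in the others, and its log2 fold change was 0.49 (SE 0.27, adjusted p = 0.481) against control.

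The genes that assemble and regulate the chain were examined by list, and none passed the adjusted threshold with limma in any comparison. In ΔNp73-labelled against control tumours the median was -0.10 for complex I assembly factors (7 of 9 below 0), -0.28 for complex II and III assembly (5 of 6), -0.19 for complex IV assembly (11 of 11 tested), -0.15 for complex V assembly and inhibitor genes (4 of 5) and -0.24 for cytochrome c and coenzyme Q synthesis (10 of 12). In ΔNp63-labelled tumours the same medians were 0.01, 0.19, 0.08, 0.15 and 0.07, and without replicate 2 they were 0.01, 0.01, -0.13, -0.15 and -0.00. Lyrm7, which inserts the Rieske protein Uqcrfs1 into complex III, was at 5.50 and 6.64 FPKM in the control libraries, 2.68, 2.67 and 3.11 in the ΔNp63-labelled libraries and 1.97, 3.62 and 1.62 in the ΔNp73-labelled libraries. Both Cre-treated groups lay below both controls, with -0.88 (SE 0.25, adjusted p = 0.254) in ΔNp63-labelled and -1.09 (SE 0.25, adjusted p = 0.0963) in ΔNp73-labelled tumours. Ecsit, a complex I assembly factor, was at 5.16 and 5.42 FPKM in control, 5.71, 5.63 and 5.35 in ΔNp63-labelled and 4.32, 2.77 and 2.97 in ΔNp73-labelled tumours, with -0.55 (SE 0.18, adjusted p = 0.158) in ΔNp73-labelled tumours. Coq4, of coenzyme Q synthesis, was at 2.43 and 3.22 FPKM in control, 3.65, 5.79 and 3.31 in ΔNp63-labelled and 2.28, 2.07 and 2.35 in ΔNp73-labelled tumours, above both controls in ΔNp63-labelled and below both in ΔNp73-labelled tumours, with -0.67 (SE 0.20, adjusted p = 0.434) between the Cre-treated groups. Cox10, which makes the haem of complex IV, had -0.48 (SE 0.25, adjusted p = 0.31) in ΔNp73-labelled tumours, and Atpaf2, which assembles the catalytic head of complex V, had -0.53 (SE 0.27, adjusted p = 0.299). Of the 2 genes with the smallest p in each of these lists, the others in ΔNp73-labelled tumours had -0.23 for Ndufaf3, -0.25 for Uqcc, -0.40 for Cox11, -0.38 for Atpaf1, 0.41 for Coq10b and -0.60 for Coq7, with adjusted p from 0.336 to 0.495. In ΔNp63-labelled tumours they had 0.44 for Ndufaf4, 0.26 for Ndufaf2, 0.24 for Sdhaf2, 0.33 for Surf1, 0.44 for Cox18, 0.26 for Atpif1, 0.15 for Tmem70, 0.43 for Coq4 and 0.39 for Coq2, with adjusted p from 0.42 to 0.788. Between the Cre-treated groups, where the medians of these lists were -0.17, -0.26, -0.29, -0.36 and -0.34 (without ΔNp63-labelled replicate 2, -0.03, -0.25, -0.03, -0.13 and -0.20), they had -0.61 for Ecsit, -0.49 for Ndufaf2, -0.51 for Sdhaf1, -0.57 for Bcs1l, -0.38 for Surf1, -0.55 for Cox10, -0.50 for Atpaf2, -0.36 for Atpaf1 and -0.51 for Coq6, with adjusted p from 0.421 to 0.506. At an unadjusted p under 0.05, Lyrm7 was lower in both comparisons with control and Ecsit in ΔNp73-labelled tumours, and Ecsit, Coq4, Surf1 and Cox10 were lower in ΔNp73-labelled than in ΔNp63-labelled tumours. Of all genes, 7.03% and 9.83% were lower at that p in the comparisons with control and 4.4% between the Cre-treated groups, so the few calls against control were no more frequent in these lists than in the table. Between the Cre-treated groups 1 of 9 complex I, 2 of 11 complex IV and 1 of 12 cytochrome c and coenzyme Q genes were lower, above that share. In the complex II and III and complex V lists 0 of 6 and 0 of 5 were lower.

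Regulators of mitochondrial gene expression had a median of -0.08 in ΔNp63-labelled and -0.34 in ΔNp73-labelled against control tumours, with 9 and 14 of 15 below 0. Without ΔNp63-labelled replicate 2 the first median was -0.33, with 13 of 15 below 0, and the contrast with the ΔNp73-labelled median thus rested on that library. With limma 0 of 15 passed in either, and at an unadjusted p under 0.05 there were 3 of 15 lower in each, against 7.03% and 9.83% of all genes. Gabpa, the DNA-binding part of GABP, was at 26.6 and 26.9 FPKM in the control libraries, 15.5, 14.6 and 19.2 in the ΔNp63-labelled libraries and 20.0, 19.2 and 23.7 in the ΔNp73-labelled libraries. All 6 Cre-treated libraries lay below both controls, with -0.68 (SE 0.16, adjusted p = 0.219) in ΔNp63-labelled and -0.34 (SE 0.16, adjusted p = 0.275) in ΔNp73-labelled tumours. Gabpb1, its activating partner, was at 17.4 and 18.2 FPKM in control, 11.7, 13.1 and 12.4 in ΔNp63-labelled and 9.69, 11.7 and 13.3 in ΔNp73-labelled tumours, with -0.49 (SE 0.16, adjusted p = 0.299) and -0.59 (SE 0.16, adjusted p = 0.119). Nrf1 was at 7.86 and 9.25 FPKM in control, 1.27, 4.26 and 4.42 in ΔNp63-labelled and 4.94, 4.46 and 5.74 in ΔNp73-labelled tumours, with -1.25 (SE 0.37, adjusted p = 0.268) and -0.66 (SE 0.37, adjusted p = 0.338). For all 3 the order of the groups was thus control above both others, while the respiratory chain genes in the ΔNp63-labelled group had a median near 0. Polg, the mitochondrial DNA polymerase, had -0.52 (SE 0.18, adjusted p = 0.175) in ΔNp73-labelled tumours.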

How the data were processed

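RNA of 8 thymic lymphomas was sequenced (TruSeq libraries). The authors deposited 1 table of FPKM per RefSeq transcript, quantile-normalised between libraries, so a change in total RNA cannot be seen. Per the submitters' processing notes, TopHat2 2.0, Cufflinks 2.0 and the build mm9 were used; their roles are not given in the sources used here. The table holds 16589 entries; the entry with the highest mean was kept for each of 13681 symbols (90 entries for the 84 members, 4 of which had more than 1). Subunit genes with pseudogene copies may have shared reads.

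The 12921 genes that reached an FPKM of 1 in 2 or more libraries were tested on log2(FPKM + 1). The model was that of limma 3.58.1 under R 4.3.3 (trend, two-sided, all 8 libraries, 3 group means), with Benjamini-Hochberg adjustment over all genes and a threshold of 0.05; the script was tested on simulated data. Fold changes on this scale understate changes of low genes. Alternatives were pseudocounts of 0.1 and 5, no filter, at least 5 FPKM in at least 3 libraries, summed entries, median centring, array weights, no trend, the 2 compared groups alone, and each library left out. Replicate numbers follow the sample order and pair nothing. The members and lists were chosen with earlier results of these data known. Named members were the 2 most abundant per complex, the 4 most positive and 4 most negative per comparison, isoform families and the Sdh genes, and in each list those with the smallest p; Ndufs1, Ndufa12, Atp5h, Ndufb11, the single marker genes and the promoters printed were added after their values were seen.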

Additional observations from a re-analysis of the deposited data

How the results depend on the processing

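The medians of the 84 members moved by less than the spread of library medians within the compared groups under each alternative tried. That spread (SD 0.17, 0.15 and 0.20 in the 3 comparisons) includes the libraries that stood apart, so the bound is wide. The ΔNp73-labelled medians kept their sign, while that of ΔNp63-labelled against control went from 0.08 to -0.03 without ΔNp63-labelled replicate 2. Leaving out each library in turn gave -0.03 to 0.18 for ΔNp63-labelled against control, -0.30 to -0.13 for ΔNp73-labelled against control and -0.35 to -0.14 between them, and array weights left the first near 0 (43 of 84 below it). The number of members past the threshold changed. With array weights it was 9, 37 and 1 in the 3 comparisons. With the 2 compared groups alone it was 9 in ΔNp73-labelled against control tumours. Leaving out each library in turn gave 0 to 3, 0 to 6 and 0 to 0, and the 3 and the 6 came without ΔNp63-labelled replicate 2. The 6 were Atp5d, Atp5h, Cox4i2, Cox6b2, Ndufa4l2 and Ndufb11, and the 3 were Cox4i2, Cox6b2 and Ndufc2. Each fold change is on the scale with a pseudocount of 1, and that of Cox4i2 in ΔNp63-labelled tumours was 1.47 with 0.1 and 0.30 with 5. No paired analysis was possible because the labels give no replicate numbers. The depth of the libraries is unknown, so no limit of detection can be given.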

Other observations

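Genes of the mitochondrial ribosome, which translates the mitochondrially encoded subunits, had a lower mean in ΔNp73-labelled than in ΔNp63-labelled tumours throughout. In ΔNp73-labelled against ΔNp63-labelled tumours 76 of 76 lay below 0, with a median log2 fold change of -0.35, where 51.9% of all genes lay below 0. Without ΔNp63-labelled replicate 2, which stood apart, the median was -0.12, with 65 of 76 below 0. Against control the median was 0.19 in ΔNp63-labelled tumours (68 of 76 above 0, but -0.02 and 37 of 76 without replicate 2) and -0.20 in ΔNp73-labelled tumours (56 of 76 below 0), and 0 of 76 passed the adjusted threshold with limma. At an unadjusted p under 0.05 10 of the 76 were lower and 0 higher between the Cre-treated groups, against 4.4% and 6.11% of all genes. Mrpl51, a protein of the large subunit, was at 25.6 and 22.8 FPKM in control, 29.2, 26.6 and 29.0 in ΔNp63-labelled and 20.4, 18.3 and 14.9 in ΔNp73-labelled tumours, with -0.64 (SE 0.15, adjusted p = 0.345), and Mrps26, of the small subunit, at 20.2 and 19.7 FPKM in control, 18.0, 24.8 and 18.5 in ΔNp63-labelled and 12.4, 13.4 and 14.1 in ΔNp73-labelled tumours, with -0.57 (SE 0.15, adjusted p = 0.421). In both genes the ΔNp73-labelled libraries lay below every ΔNp63-labelled library. The smallest p against control belonged to Mrpl52 in ΔNp63-labelled, with 0.59 (SE 0.17, adjusted p = 0.258), and to Mrps26 in ΔNp73-labelled tumours, with -0.55 (SE 0.17, adjusted p = 0.139).

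The 16 genes of the TCA cycle and pyruvate dehydrogenase had a median of -0.16 in both comparisons with control and -0.05 between the Cre-treated groups. Suclg2, the GTP-forming subunit of succinyl-CoA synthetase, was higher than both controls in all 6 Cre-treated libraries, with 0.48 (SE 0.20, adjusted p = 0.38) in ΔNp63-labelled tumours. Mdh2, the mitochondrial malate dehydrogenase, was at 265 and 296 FPKM in control, 225, 322 and 254 in ΔNp63-labelled and 215, 226 and 211 in ΔNp73-labelled tumours, with -0.37 (SE 0.18, adjusted p = 0.286) in ΔNp73-labelled tumours.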
